A study of Mus musculus with 6 samples.

Results

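The 34 genes examined here are a list of neuronal and synaptic vesicle genes, taken by symbol from the 18211 genes of the deposited table: vesicle proteins, enzymes and transporters of neurotransmitters, neuronal cytoskeleton genes, neuronal RNA-binding proteins, the scaffold gene Dlg4, the Dlx factors of interneurons and genes of immature neurons. All 34 were found, and all 34 passed the filter on low values, Slc17a6 only through its DISC1-Δ3 libraries. They were measured by RNA-seq in 6 libraries of oligodendrocyte precursor cells (OPCs), isolated from C57BL/6 pups at postnatal day 7 by panning on PDGFRα, 3 from wildtype and 3 from DISC1-Δ3 mice. DISC1-Δ3 mice carried NG2-CreERTM and 1 floxed copy of DISC1 exon 3 (fl/+), so that exon 3 was lost from a single allele in cells where the NG2 promoter had driven the recombinase. The wildtype mice lacked CreERT, and both groups received tamoxifen by gavage from postnatal day 4 to 7. The presence of the recombinase and the loss of exon 3 therefore cannot be told apart. The sources do not say whether a library came from 1 pup or from several, and p-values measure the spread between these libraries only.

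Neurons release transmitter from synaptic vesicles. Synaptotagmin senses calcium, and the SNARE proteins, among them SNAP25 and VAMP2, fuse the vesicle with the membrane while complexins clamp and promote this step. Glutamate and GABA are loaded by separate vesicular transporters, and GABA is made by glutamate decarboxylases. OPCs receive synapses from neurons and transcribe part of this machinery themselves, so that most of these genes are enriched in neurons rather than confined to them.

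The libraries held 13716619 to 16417219 assigned reads each, so that a single read stood for 0.0609 to 0.0729 CPM (reads scaled to a common library total). Disc1 itself, the targeted gene, was at 3.51, 3.34 and 3.81 RPKM (reads scaled by transcript length and library total) in wildtype replicates 1 to 3 and at 2.86, 2.44 and 2.85 RPKM in DISC1-Δ3 replicates 1 to 3; its log2 fold change was -0.45 (adjusted p = 0.000528), and a value per gene does not resolve exon 3. Pdgfra, the gene panned on, was present but not dominant, at 17.16 to 18.06 RPKM in wildtype and 24.96 to 26.79 RPKM in DISC1-Δ3. Cspg4, which encodes NG2 and is also expressed by pericytes, averaged 15.8 and 23.0 RPKM in these groups. In the same wildtype libraries the neuronal tubulin Tubb3 lay between 210.84 and 218.04 RPKM, and the microglial gene C1qa had a mean of 3312 RPKM. Markers of microglia, astrocytes, endothelium and pericytes were all detected in every library. In such bulk samples, fewer cells of a type and less RNA per cell cannot be told apart. DISC1-Δ3 replicate 3 stood apart from replicates 1 and 2 on the second principal component, which held 8.13% of the variance (scores -14.2 against 7.30 and 6.79), and results that rest on it are given with and without it.

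Promoters of the genes are shown because many members moved together, and because REST, the repressor of neuronal genes outside neurons, binds the RE1 element. RefSeq (GRCm38.p6, the assembly called mm10 in the submitters' processing notes) gave 300-base windows for 22 of the 34 genes, some with several start sites. Both strands were searched for the left arm of RE1 (TTCAGCACC), its right arm (GGACAGCG), the cAMP response element (TGACGTCA), its overlapping core (TGACGT) and the TCF/LEF motif (ATCAAAG). The left arm of RE1 was in the Syn1 window alone among these genes, and in 0.433% of all 27025 genes with a window. The right arm was in that of Gad2, and in 1.48% of all genes. The cAMP response element was in the Syn1 window, against 2.03% of all genes, and its core was in those of Syn1, Elavl4 and Dlx2, against 8.37%. The TCF/LEF motif was in the windows of 0 of the 22 genes, against 4.29% of all genes. Printed here are the windows of Syn1 (chrX:20920869-20921168, minus strand) and Gad2 (chr2:22622077-22622376, plus strand), the members with an RE1 arm, and Slc17a6 (chr7:51621580-51621879, plus strand), the member with the largest fold change, shown by the first of its windows and with none of the motifs. Capitals mark the motifs, and sequences run 5′ to 3′ from 250 bases before the start site to 50 after it.
Syn1: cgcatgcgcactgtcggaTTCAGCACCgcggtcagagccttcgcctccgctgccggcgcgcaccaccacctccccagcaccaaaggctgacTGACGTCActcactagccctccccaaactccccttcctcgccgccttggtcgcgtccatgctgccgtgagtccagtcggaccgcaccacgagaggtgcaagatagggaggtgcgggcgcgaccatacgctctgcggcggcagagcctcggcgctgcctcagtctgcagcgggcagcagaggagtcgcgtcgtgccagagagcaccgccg
Gad2: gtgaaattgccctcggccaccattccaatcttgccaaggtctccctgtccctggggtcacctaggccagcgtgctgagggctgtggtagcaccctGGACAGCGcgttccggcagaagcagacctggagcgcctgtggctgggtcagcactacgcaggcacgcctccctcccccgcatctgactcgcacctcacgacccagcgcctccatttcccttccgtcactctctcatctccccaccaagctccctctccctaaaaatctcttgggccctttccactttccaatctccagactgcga
Slc17a6: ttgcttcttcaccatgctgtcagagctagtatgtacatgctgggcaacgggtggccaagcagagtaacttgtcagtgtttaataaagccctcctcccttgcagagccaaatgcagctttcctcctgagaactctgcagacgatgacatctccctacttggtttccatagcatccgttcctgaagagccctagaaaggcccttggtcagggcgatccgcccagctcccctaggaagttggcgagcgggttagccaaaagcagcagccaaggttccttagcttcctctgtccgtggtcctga
These matches are descriptions of letters in a window, and binding was not measured. Only exact matches were counted, so a window with a marked RE1 arm may also hold an inexact copy of the other arm.

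Most of the neuronal genes were higher in the DISC1-Δ3 libraries, by modest amounts. Which cells of these mixed samples carried the transcripts was not measured. Of the 34 genes, 23 rose and 1, Dlx1, fell at an adjusted p under 0.05 (quasi-likelihood test of edgeR, p-values adjusted by Benjamini-Hochberg over all 13792 tested genes), and 10 did not pass. Over all tested genes 20.4% were higher and 19.5% lower, 39.9% in all, against 70.6% of the members. Log2 fold changes are given as DISC1-Δ3 over wildtype, ± SE. Their median over the members was 0.34, beside 0.01 over all tested genes, and single values ran from -0.25 (Gad2) to 1.19 (Slc17a6). RPKM did not overlap between the groups for 25 of the 34 genes, beside 52.0% of all tested genes. Vesicle, cytoskeleton and RNA-binding genes made up most of the rises, whereas the Dlx factors and the genes of immature neurons mostly did not pass. Counts were scaled by TMM, which lowered DISC1-Δ3 values relative to wildtype: without it, the median over all genes was 0.09.

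**Figure D1:**
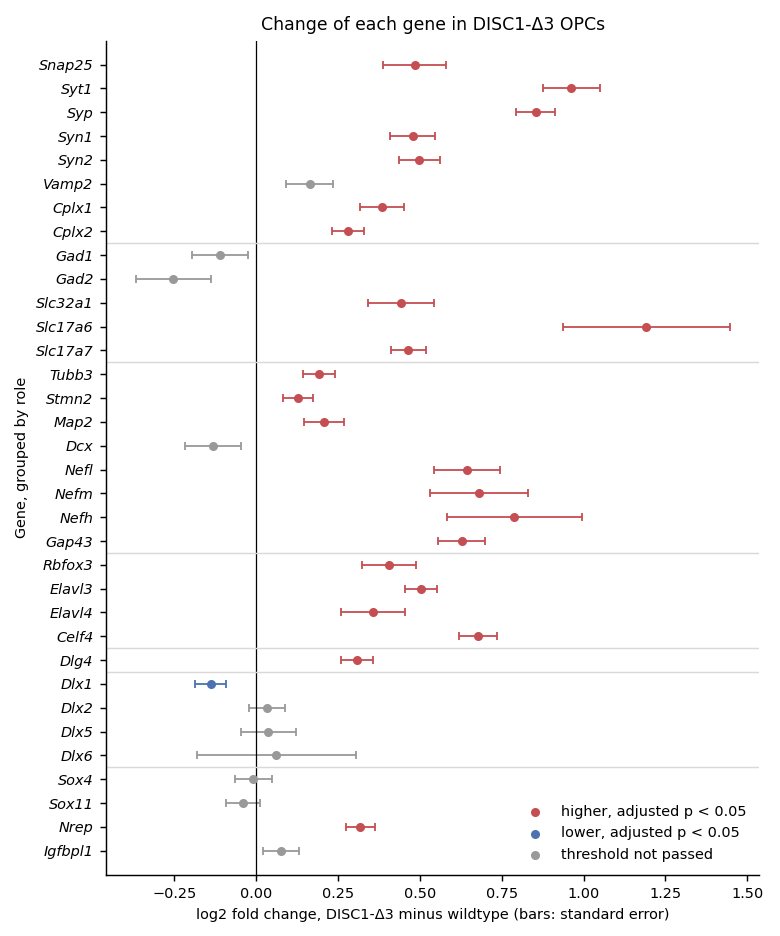
The log2 fold change of each of the 34 genes (DISC1-Δ3 minus wildtype, 3 libraries each) is plotted with its standard error, grouped by role, and coloured by whether the adjusted p was under 0.05. The 23 red genes lie to the right of 0, Dlx1 in blue lies to the left, and Slc17a6 has both the largest value and the widest bar.

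Among the proteins of the vesicle and its fusion machinery, 7 of 8 genes rose, 0 fell and Vamp2 did not pass. Syt1, which encodes the calcium sensor of release, was at 3.35, 3.36 and 3.72 RPKM in wildtype and 6.77, 6.50 and 7.89 RPKM in DISC1-Δ3. It rose 1.95-fold, from 3.48 ± 0.211 to 7.05 ± 0.737 RPKM (SD, n = 3 libraries in each group), a difference of 0.96 ± 0.088 on the log2 scale (adjusted p = 9.34e-08). Every DISC1-Δ3 library was above every wildtype library, with replicate 3 the highest. Syp, which encodes the vesicle membrane protein synaptophysin, was at 20.30, 20.98 and 21.71 RPKM in wildtype and 40.30, 41.92 and 38.25 RPKM in DISC1-Δ3, with a log2 fold change of 0.85 ± 0.060 (adjusted p = 3.24e-09). The groups were far apart for Syp, and replicate 3 was the lowest of the DISC1-Δ3 libraries. Snap25, the SNARE of the plasma membrane, was at 8.48, 8.84 and 9.60 RPKM in wildtype and 11.75, 12.95 and 15.12 RPKM in DISC1-Δ3, giving a log2 fold change of 0.48 ± 0.097 (adjusted p = 0.000640). Its highest value was again in DISC1-Δ3 replicate 3, and without that library its log2 fold change was 0.38 (adjusted p = 0.00108).

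The synapsins tether vesicles to each other and to the cytoskeleton. Syn1 was at 19.07, 21.63 and 21.54 RPKM in wildtype and 27.92, 33.25 and 30.73 RPKM in DISC1-Δ3, a difference of 0.48 ± 0.069 on the log2 scale (adjusted p = 2.28e-05). Syn2 was at 11.65, 10.93 and 11.22 RPKM in wildtype and 16.94, 16.52 and 17.01 RPKM in DISC1-Δ3, with a log2 fold change of 0.50 ± 0.062 (adjusted p = 4.82e-06). Both were higher in all 3 DISC1-Δ3 libraries and by almost the same amount. The complexins followed with smaller changes. Cplx1 was at 21.00, 21.51 and 19.77 RPKM in wildtype and 26.92, 30.56 and 28.44 RPKM in DISC1-Δ3, giving a log2 fold change of 0.38 ± 0.067 (adjusted p = 0.000190). Cplx2 was at 35.91, 36.61 and 34.20 RPKM in wildtype and 46.22, 48.17 and 45.99 RPKM in DISC1-Δ3, a difference of 0.28 ± 0.049 on the log2 scale (adjusted p = 0.000196). Vamp2, the SNARE of the vesicle and the most abundant gene of this group, was at 135.60, 161.40 and 149.66 RPKM in wildtype and 156.90, 197.10 and 175.21 RPKM in DISC1-Δ3, and its groups overlapped (log2 fold change 0.16 ± 0.071, adjusted p = 0.0774). Vamp2 passed in 9 of 15 alternatives, among them those that left out wildtype replicate 2, DISC1-Δ3 replicate 1 or DISC1-Δ3 replicate 3 (log2 fold changes of 0.23, 0.22 and 0.17, adjusted p = 0.0392, 0.0190 and 0.0351) and the one with the replicate number as a block (adjusted p = 0.00532). Exons of Araf and Timp4 overlap those of Syn1 and Syn2 on the other strand, and the counting is not stated to use strand. Araf and Timp4 had log2 fold changes of 0.07 and -0.03 (adjusted p = 0.409 and 0.683).

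**Figure D2:**
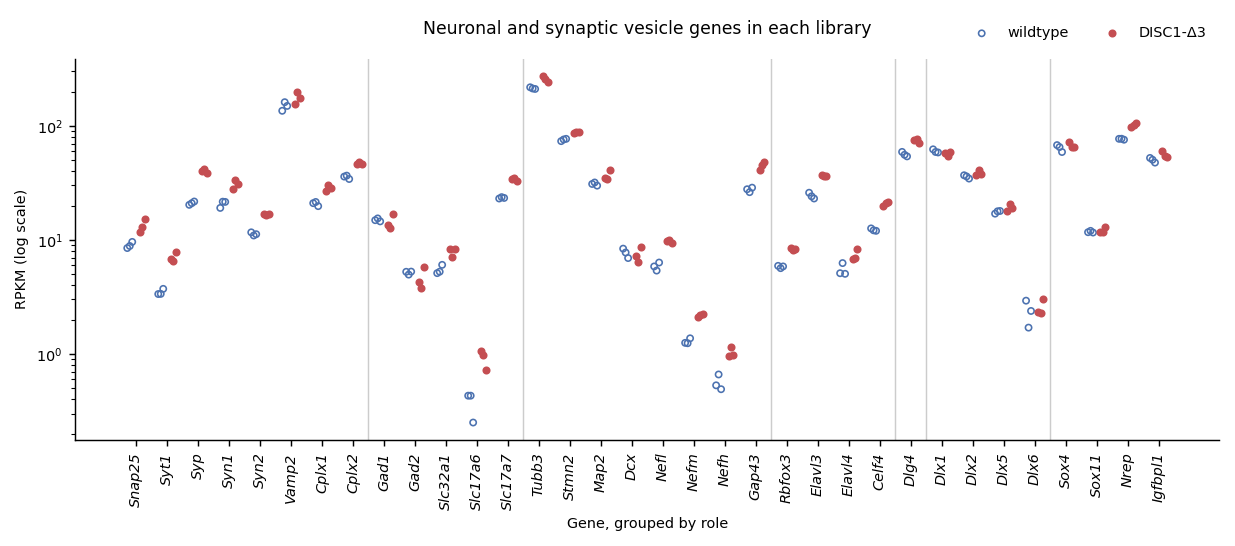
RPKM of each gene in each library on a log axis, with open circles for the 3 wildtype and filled circles for the 3 DISC1-Δ3 libraries, grouped by role. Levels span from 0.25 RPKM (Slc17a6 in wildtype replicate 3) to 273 RPKM (Tubb3 in DISC1-Δ3 replicate 1), and the circles of Syt1, Syp and Slc17a6 are the most separated.

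The genes of transmitter synthesis and loading divided. Both vesicular glutamate transporters rose. Slc17a7, which encodes VGLUT1, was at 23.06, 23.71 and 23.33 RPKM in wildtype and 34.26, 34.93 and 33.18 RPKM in DISC1-Δ3, with a log2 fold change of 0.46 ± 0.053 (adjusted p = 1.64e-06). Slc17a6, which encodes VGLUT2, was far lower and was at 0.43, 0.43 and 0.25 RPKM in wildtype and 1.06, 0.98 and 0.72 RPKM in DISC1-Δ3, from 20, 28 and 17 reads against 59, 55 and 43. It rose 2.28-fold, the largest change of the 34 genes, with the widest error (log2 fold change 1.19 ± 0.255, adjusted p = 0.00116). Every wildtype value of Slc17a6 was under the filter's 0.5 RPKM, so the gene was tested only because its DISC1-Δ3 libraries were higher. Levels of both transporters were without overlap between the groups, which for Slc17a6 followed from passing the filter in this way. Slc32a1, which encodes the vesicular GABA transporter, was at 5.11, 5.26 and 6.04 RPKM in wildtype and 8.36, 7.05 and 8.24 RPKM in DISC1-Δ3, giving a log2 fold change of 0.44 ± 0.101 (adjusted p = 0.00193), and was likewise higher in all 3 DISC1-Δ3 libraries.

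The GABA-synthesizing enzymes did not follow Slc32a1. Gad1 was at 14.89, 15.43 and 14.53 RPKM in wildtype and 13.55, 12.80 and 16.71 RPKM in DISC1-Δ3, a difference of -0.11 ± 0.086 on the log2 scale (adjusted p = 0.327). Gad2 was at 5.25, 4.96 and 5.27 RPKM in wildtype and 4.24, 3.75 and 5.78 RPKM in DISC1-Δ3, with a log2 fold change of -0.25 ± 0.114 (adjusted p = 0.0888). For both enzymes DISC1-Δ3 replicates 1 and 2 were below every wildtype library and replicate 3 was above every one. Without DISC1-Δ3 replicate 3, Gad1 and Gad2 passed as lower, at log2 fold changes of -0.24 and -0.46 (adjusted p = 0.00470 and 7.17e-05). The direction of Slc32a1 was the same with and without that library. Whether the enzymes and the transporter changed by different amounts was not tested.

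Of 8 cytoskeleton and growth genes, 7 rose, 0 fell and Dcx did not pass. The neurofilaments, which set the calibre of axons, rose most. Nefl was at 5.85, 5.38 and 6.33 RPKM in wildtype and 9.74, 9.96 and 9.30 RPKM in DISC1-Δ3, giving a log2 fold change of 0.64 ± 0.101 (adjusted p = 6.41e-05). Nefm was at 1.25, 1.24 and 1.37 RPKM in wildtype and 2.12, 2.19 and 2.25 RPKM in DISC1-Δ3, a difference of 0.68 ± 0.149 on the log2 scale (adjusted p = 0.00143). Nefh was at 0.53, 0.66 and 0.49 RPKM in wildtype and 0.95, 1.16 and 0.98 RPKM in DISC1-Δ3, with a log2 fold change of 0.79 ± 0.205 (adjusted p = 0.00524). All 3 subunits were separated between the groups, and Nefh came from 28 to 42 reads in wildtype and 52 to 72 reads in DISC1-Δ3. Exons of Nefl and Nefm overlap on opposite strands. Gap43, a protein of growth cones, was at 27.81, 26.22 and 28.71 RPKM in wildtype and 41.26, 45.79 and 47.95 RPKM in DISC1-Δ3, giving a log2 fold change of 0.63 ± 0.071 (adjusted p = 1.43e-06). It lay clearly above wildtype in all 3 DISC1-Δ3 libraries.

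The abundant cytoskeletal genes changed less. Tubb3, the neuronal β-tubulin, was at 218.04, 212.80 and 210.84 RPKM in wildtype and 273.05, 258.64 and 242.19 RPKM in DISC1-Δ3, a difference of 0.19 ± 0.049 on the log2 scale (adjusted p = 0.00481). Without DISC1-Δ3 replicate 1, its highest library, Tubb3 was at 0.13 (adjusted p = 0.0773). Stmn2, which regulates microtubules in growing axons, was at 73.49, 75.97 and 76.98 RPKM in wildtype and 86.17, 87.61 and 87.87 RPKM in DISC1-Δ3, with a log2 fold change of 0.13 ± 0.045 (adjusted p = 0.0322). The groups did not overlap in RPKM, but the call of Stmn2 was lost in 8 of 15 alternatives, among them DESeq2 (adjusted p = 0.0776) and the omission of wildtype replicate 1, 2 or 3 or of DISC1-Δ3 replicate 1 or 2 (adjusted p = 0.106, 0.0794, 0.0532, 0.115 and 0.190; log2 fold changes from 0.10 to 0.14). Map2, the microtubule protein of dendrites, was at 30.94, 31.88 and 29.92 RPKM in wildtype and 35.07, 34.09 and 41.32 RPKM in DISC1-Δ3, giving a log2 fold change of 0.21 ± 0.060 (adjusted p = 0.0106). Without wildtype replicate 3 it was at 0.17 (adjusted p = 0.0725), and without DISC1-Δ3 replicate 3, which held the highest value, it was at 0.11 (adjusted p = 0.0382). Dcx, the microtubule protein of migrating neurons, was at 8.38, 7.75 and 6.93 RPKM in wildtype and 7.29, 6.38 and 8.59 RPKM in DISC1-Δ3, and overlapped (log2 fold change -0.13 ± 0.086, adjusted p = 0.239). Like the Gad genes, Dcx had its highest DISC1-Δ3 value in replicate 3, and without that library it passed as lower, at -0.25 (adjusted p = 0.00501).

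All 4 neuronal RNA-binding proteins rose, and RPKM did not overlap for any of them. Celf4, a regulator of synaptic mRNAs, was at 12.61, 12.13 and 12.01 RPKM in wildtype and 19.64, 21.18 and 21.43 RPKM in DISC1-Δ3, a difference of 0.68 ± 0.059 on the log2 scale (adjusted p = 4.75e-08). Elavl3, a Hu protein that binds AU-rich mRNA, was at 25.92, 24.11 and 23.07 RPKM in wildtype and 36.85, 36.03 and 36.69 RPKM in DISC1-Δ3, with a log2 fold change of 0.50 ± 0.049 (adjusted p = 2.27e-07). Its relative Elavl4 was at 5.10, 6.26 and 5.04 RPKM in wildtype and 6.84, 6.99 and 8.31 RPKM in DISC1-Δ3, giving a log2 fold change of 0.36 ± 0.098 (adjusted p = 0.00748). Elavl4 was at 0.30 without wildtype replicate 3 (adjusted p = 0.0538) and at 0.26 without DISC1-Δ3 replicate 3, its highest library (adjusted p = 0.0231). Rbfox3, which encodes the nuclear marker NeuN, was at 5.92, 5.65 and 5.85 RPKM in wildtype and 8.44, 8.17 and 8.36 RPKM in DISC1-Δ3, a difference of 0.41 ± 0.082 on the log2 scale (adjusted p = 0.000708). The DISC1-Δ3 libraries were tightly grouped for Elavl3 and Rbfox3. Dlg4, which encodes the postsynaptic scaffold PSD-95, was at 59.13, 55.79 and 54.01 RPKM in wildtype and 75.18, 76.18 and 71.28 RPKM in DISC1-Δ3, with a log2 fold change of 0.31 ± 0.049 (adjusted p = 6.60e-05). All 3 DISC1-Δ3 libraries were above all wildtype libraries for Dlg4.

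The Dlx genes, homeobox factors that specify forebrain interneurons, did not share the rise. Dlx1 was at 62.28, 59.05 and 58.46 RPKM in wildtype and 57.93, 54.85 and 58.89 RPKM in DISC1-Δ3, with overlapping RPKM, and fell by 0.14 on the log2 scale (SE 0.047, adjusted p = 0.0243). That call was lost in 7 of 15 alternatives, including library totals without TMM (-0.06, adjusted p = 0.342) and the omission of wildtype replicate 1, wildtype replicate 2 or DISC1-Δ3 replicate 2 (log2 fold changes of -0.11, -0.15 and -0.13, adjusted p = 0.0987, 0.0578 and 0.0884). Exons of the antisense gene Dlx1as overlap those of Dlx1. Dlx2 was at 36.89, 36.04 and 34.50 RPKM in wildtype and 37.38, 40.76 and 38.11 RPKM in DISC1-Δ3, giving a log2 fold change of 0.03 ± 0.055 (adjusted p = 0.659). Its RPKM did not overlap between the groups, while the TMM-scaled difference was near 0. Dlx5 was at 16.99, 17.81 and 17.93 RPKM in wildtype and 17.87, 20.46 and 18.97 RPKM in DISC1-Δ3, and Dlx6 was at 1.70 to 2.93 RPKM in wildtype and 2.27 to 3.02 RPKM in DISC1-Δ3. Log2 fold changes of Dlx5 and Dlx6 were 0.04 and 0.06 (adjusted p = 0.756 and 0.865). The sign of Dlx2, Dlx5 and Dlx6 changed between alternatives, without a call in any.

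Of the 4 genes of immature neurons, 1 rose. Nrep, a gene of regenerating and migrating neurons, was at 76.99, 77.13 and 75.64 RPKM in wildtype and 97.15, 101.08 and 105.33 RPKM in DISC1-Δ3, a difference of 0.32 ± 0.044 on the log2 scale (adjusted p = 1.58e-05), with every DISC1-Δ3 library above wildtype. Sox4 and Sox11 are related SoxC factors that drive early neuronal genes. Sox4 was at 67.81, 65.20 and 58.98 RPKM in wildtype and 71.59, 65.24 and 65.04 RPKM in DISC1-Δ3, with a log2 fold change of -0.01 ± 0.056 (adjusted p = 0.921). Sox11 was at 11.68, 12 and 11.60 RPKM in wildtype and 11.68, 11.73 and 12.91 RPKM in DISC1-Δ3, giving a log2 fold change of -0.04 ± 0.051 (adjusted p = 0.567). The groups overlapped for both, and both signs changed between alternatives. Igfbpl1, a gene of newborn neurons, was at 52.32, 50.47 and 47.64 RPKM in wildtype and 60.23, 53.99 and 53.54 RPKM in DISC1-Δ3, without overlap in RPKM. After TMM scaling the difference of Igfbpl1 was 0.08 ± 0.056 on the log2 scale (adjusted p = 0.297). It passed in 4 alternatives without TMM (library totals, RPKM sums and both limma fits), at 0.15 to 0.16 (adjusted p = 0.0263 to 0.0465).

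**Figure D3:**
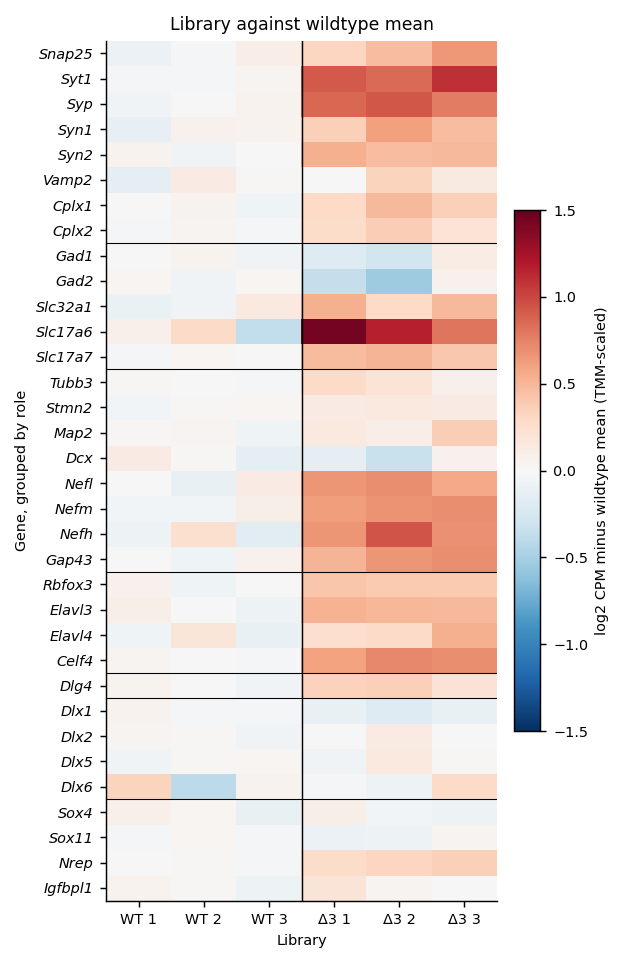
Colour gives each library's log2 CPM minus the wildtype mean of that gene, TMM-scaled, for the 34 genes (rows, by role) and 6 libraries (columns: WT, wildtype; Δ3, DISC1-Δ3). The DISC1-Δ3 columns are red for most vesicle, neurofilament and RNA-binding genes, and replicates 1 and 2 are blue for Gad1, Gad2 and Dcx while replicate 3 is not.

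Among the DISC1-Δ3 libraries, replicate 3 had the highest scaled value for 12 of the 34 genes and the lowest for another 12, 35.3% each. Over all tested genes it was the highest for 38.3% and the lowest for 37.5%. Its ranks went in both directions for the neuronal genes, as they did for all genes. Among 3 libraries, such shares can also come from one that does not stand apart, so the ranks do not measure its distance. With replicate 3 left out, Gad1, Gad2 and Dcx passed as lower, as Dlx1 did with and without it, and Vamp2 passed as higher. The share of all tested genes called in that fit is not given here. These additions are therefore not read as particular to the members.

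Lists of other neuronal and synaptic genes also held more rises than falls, where 20.4% of all tested genes were higher and 19.5% lower. Of 39 tested vesicle and release genes outside the 34, 20 rose and 0 fell (median log2 fold change 0.33). Cplx3, Syngr3 and Napb, all with roles at the vesicle, had the largest rises (log2 fold changes of 1.27, 0.89 and 0.82), whereas the abundant Syt11, Syngr1 and Napa, at means of 133, 75.3 and 71.3 RPKM in wildtype, were at -0.09, 0.08 and -0.01 and did not pass (adjusted p = 0.0933, 0.301 and 0.844). Of 38 neuron-enriched genes, 30 rose and 1 fell (median log2 fold change 0.41). The intermediate filament gene Prph, the noncoding RNA Snhg11 and the adhesion gene L1cam led, at 1.57, 1.44 and 1.05. Prph and Snhg11 were low, at means of 0.38 and 0.50 RPKM in wildtype and 1.20 and 1.41 RPKM in DISC1-Δ3. Every wildtype value of Prph was under the filter's 0.5 RPKM, so Prph was tested only through its DISC1-Δ3 libraries. Tubb2b, Scg3 and Basp1 were the most abundant, at means of 647, 224 and 158 RPKM in wildtype. Basp1 rose by 0.32 on the log2 scale, whereas Tubb2b and Scg3 were at 0.07 and -0.09 and did not pass (adjusted p = 0.199 and 0.162). In this list 0 genes were lower without wildtype replicate 1 or 2, and 2 were lower without DISC1-Δ3 replicate 3. Of 17 postsynaptic scaffold genes, 9 rose and 0 fell (median 0.24), led by Shank3, Dlg3 and Homer2 at 0.51, 0.47 and 0.36.

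Genes of interneurons moved both ways. Of 18 tested, 8 rose and 3 fell (median 0.22), with 5 lower without DISC1-Δ3 replicate 3. Calb1, Npy and Calb2, markers of interneuron classes and of other neurons, rose by 2.06, 1.11 and 0.87 on the log2 scale. Calb1 was low, at means of 0.58 RPKM in wildtype and 2.61 RPKM in DISC1-Δ3. In wildtype it came from 16, 31 and 28 reads, and Npy from 33, 39 and 29. Maf, which is also a macrophage factor, fell by 0.47. Factors of glutamatergic neurons were low, at most 8.87 RPKM on average (Pax6): of 10 tested, 4 rose and 1 fell (median 0.34), with 2 higher and 0 lower by DESeq2, 0 lower with limma, 2 higher without wildtype replicate 3 and 0 lower without wildtype replicate 1. Neurog2, a proneural factor, rose by 1.64 on the log2 scale, and Eomes, a factor of intermediate progenitors, fell by 0.50. Neurog2 averaged 0.53 RPKM in wildtype, from 10, 18 and 24 reads, and 1.78 RPKM in DISC1-Δ3. Rest, the repressor itself, was at 1.29 RPKM in wildtype and 1.35 RPKM in DISC1-Δ3 on average (log2 fold change -0.08, adjusted p = 0.734). Of 10 genes of REST and its corepressors 5 rose and 0 fell (median 0.11), led by Rcor2 at 0.35. The number higher was 3 without wildtype replicate 1, without wildtype replicate 2, without DISC1-Δ3 replicate 1 and by DESeq2. It was 2 without DISC1-Δ3 replicate 2, and 1 gene was lower without DISC1-Δ3 replicate 3. Counts of 2 or 3 of 10 are near the 20.4% of all tested genes that were higher in the main fit. Of this list and of the glutamatergic factors 50% each were called, beside 39.9% of all tested genes.

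**Figure D4:**
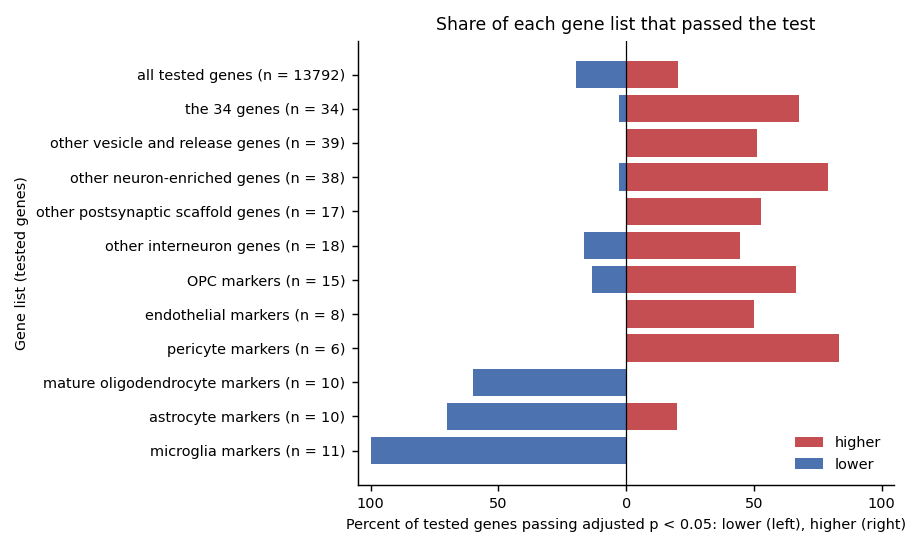
Bars give the percentage of tested genes of each list that were higher (right) or lower (left) at an adjusted p under 0.05, with the number tested in brackets. The 34 genes and the other neuronal lists lean to the right, as do OPC, endothelial and pericyte markers, and all 11 microglial markers are on the left.

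The rise of the neuronal genes was accompanied by shifts of the markers of other cells. As background to these counts, 20.4% of all tested genes were higher and 19.5% lower. Of 15 OPC markers, 10 rose and 2 fell (median 0.46), with Pcdh15, C1ql1 and Nkx2-2 the largest rises at 0.95, 0.74 and 0.69. Pcdh15 was low, at a mean of 0.60 RPKM in wildtype. The 2 that fell were at -0.35 and -0.37, and the former was abundant, at a mean of 102 RPKM in wildtype. OPC markers thus did not move as one. All 11 microglial markers fell (median -0.43), C1qb and C1qa the most, by 0.69 and 0.67 on the log2 scale. Of 10 astrocyte markers 7 fell and 2 rose (median -0.24), and of 10 mature oligodendrocyte markers 6 fell and 0 rose (median -0.39). Endothelial markers were higher for 4 of 8 (median 0.18) and pericyte markers for 5 of 6 (median 0.39). The endothelial count was 2 without wildtype replicate 2 or 3 or DISC1-Δ3 replicate 1 or 2, and 1 astrocyte marker rose without each of these same libraries.

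Summed RPKM, which is without TMM scaling, shows these shifts in each library. In the limma fits to RPKM, at pseudocounts of 1 and 0.1, the median log2 fold change over all genes was 0.07 and 0.09. The percentages below include that general offset. The 34 genes summed to 1107, 1120 and 1090 RPKM in wildtype and to 1354, 1391 and 1366 RPKM in DISC1-Δ3 replicates 1 to 3, 23.9% more on average. OPC markers summed to 603 to 625 RPKM in wildtype and 778 to 804 RPKM in DISC1-Δ3, 29.2% more, and endothelial and pericyte markers were 28.1% and 35.3% higher. Microglial markers summed to 15134 to 15425 RPKM in wildtype and 10565 to 11007 RPKM in DISC1-Δ3, a change of -28.8%. No defining marker of microglia, astrocytes, endothelium or pericytes was at 0. The part of these shifts in the change of the neuronal genes was not tested.

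**Figure D5:**
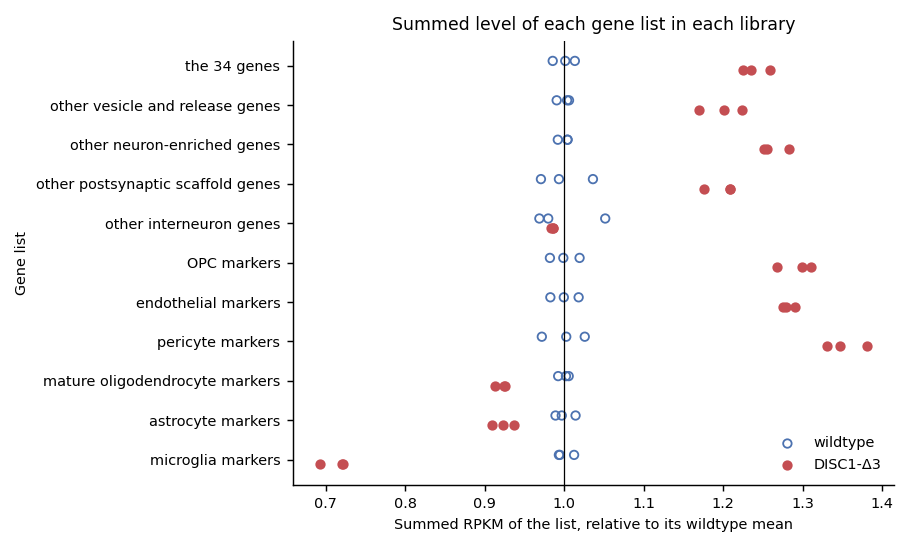
Each point is the summed RPKM of a gene list in 1 library, divided by the list's wildtype mean, with open circles for wildtype and filled circles for DISC1-Δ3. The 34 genes lie at 1.22 to 1.26 in DISC1-Δ3, close to the OPC markers at 1.27 to 1.31, and microglial markers lie at 0.69 to 0.72.

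Relative to the OPC markers of the same library, the 34 genes were not higher. The ratio of the summed RPKM was 1.77, 1.83 and 1.81 in the wildtype libraries and 1.70, 1.73 and 1.76 in DISC1-Δ3, means of 1.80 ± 0.0295 and 1.73 ± 0.0283 (SD, n = 3 each). The DISC1-Δ3 ratios were thus slightly below the wildtype ones without overlap. Relative to endothelial markers the means were 9.23 ± 0.292 and 8.92 ± 0.164, with overlap. Relative to microglial markers the ratio rose from 0.0726 ± 0.00172 to 0.126 ± 0.00294, and relative to astrocyte markers from 0.404 ± 0.00857 to 0.543 ± 0.0124, both without overlap. These ratios describe sums that the most abundant genes dominate, and no test was applied to them.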

How the data were processed

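RNA-seq libraries of panned OPCs, 3 wildtype and 3 DISC1-Δ3, were described by 1 deposited table. The authors deposited an expected count per gene and library, which need not be whole (90.2% of values above 0 were whole; among the 34 genes, only Cplx2 and Nefh had non-whole counts), and an RPKM made by the authors from counts, transcript length and library total. The submitters' processing notes name Bowtie2 2.2.5 and mm10; the counter and annotation are not given in the sources used here. Another 4 columns of averages were not used. Whether counting used strand is not stated, so a gene and its antisense partner cannot be told apart.

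Expected counts were rounded and tested with edgeR 4.0.16 (quasi-likelihood test, TMM scaling, R 4.3.3) over the 13792 genes that reached an RPKM of 0.5 in 3 or more of the 6 libraries, with genotype as the sole term. P-values are two-sided and Benjamini-Hochberg adjusted, with a threshold of 0.05. The biological coefficient of variation was 5.44%. Each library held 13716619 to 16417219 reads; intervals from counts would cover counting error only, and no interval is given. The study names DESeq2, which with limma 3.58.1 (pseudocounts of 1 and 0.1), other scalings and filters, the replicate block and each library left out made 15 alternatives, with DESeq2 at 1.42.0. The fits were tested on simulated data.

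The 34 genes and all lists (other vesicle and release, neuron-enriched, postsynaptic scaffold, interneuron, glutamatergic factor and REST genes, and markers of OPCs, mature oligodendrocytes, astrocytes, microglia, endothelium and pericytes) were chosen with earlier results of these data known. Values by library were given for members that passed or had a mean of at least 5 RPKM. From other lists up to 3 of the largest rises, falls and levels were named, besides Disc1, Pdgfra and Cspg4, while Araf, Timp4 and Rest were chosen after their values were seen. Some genes of these lists are counted but not reported here by name. By GENCODE M21, exons of 10 of the 34 genes overlap an antisense gene, and those of Elavl3 a gene on its own strand.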

Additional observations from a re-analysis of the deposited data

How the results depend on the processing

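Over 15 alternatives and 34 genes (Slc17a6 and Nefh were dropped by an RPKM minimum of 1), 0 calls reversed, 18 values lost the threshold and 17 gained it, and the other 473 kept their side. The number of members higher stayed between 20 and 25. The single lower gene, Dlx1, was not called (0 members lower) with library totals without TMM, with scaling by RPKM sums and with limma on log2(RPKM + 1) or log2(RPKM + 0.1). There were 2 members lower without the RPKM filter, where Gad2 was at -0.26 (adjusted p = 0.0392). With each library left out in turn, 0 to 4 members were lower. The members' median was 0.42 with library totals, 0.43 with RPKM sums, and 0.39 and 0.41 with limma at pseudocounts of 1 and 0.1, where the median of all genes was 0.09, 0.09, 0.07 and 0.09. Same-numbered libraries did not deviate together (correlations from -0.03 to 0.04, each best with its own number in 1 of 3 pairs), so the numbers were not taken as pairs. With the replicate block 24 members were higher and 1 lower, Vamp2 being the addition, and 5429 genes were called in place of 5498. Dlx6, Slc17a6 and Nefh had the fewest reads of the 34 genes, at most 45, 59 and 72 per library.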
